A study of Mus musculus with 24 samples.

Results

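The cytochrome P450 enzymes of families 1 to 3 are the haem proteins with which the liver oxidizes drugs, plant compounds and many steroids. Their genes were taken by symbol (Cyp followed by 1, 2 or 3, a letter and a number), which gave 49 P450 genes. To these were added Por, Alas1, Nr1i2, Nr1i3, Rxra and Ahr, for 55 members of 15741 listed genes. Of the 55 members, 51 had a read count in all 24 libraries and 50 were listed in all 10 deposited tables.

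RNA was sequenced from whole livers of individually housed mice, in 8 groups of 3 mice. The groups crossed genotype (a whole-body knockout of the kinase GCN2, KO, or wild type, WT), diet (leucine-devoid, LeuD, or Control) and circadian time of death (CT15 or CT03). They were KO LeuD CT15, KO LeuD CT03, KO Control CT15, KO Control CT03, WT LeuD CT15, WT LeuD CT03, WT Control CT15 and WT Control CT03. All 24 mice had 2 days on the Control diet, changed or kept it at dark onset, and spent 8 days in constant darkness from 24 h later, so all 8 groups were killed without a light cycle. Neither the strain nor the age or sex of the mice is given in the labels. All 24 libraries held reads of the Y-linked gene Ddx3y (1734 to 3314 reads).

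A P450 enzyme needs electrons, which it receives from the reductase encoded by Por, and haem, whose synthesis starts with the enzyme encoded by Alas1. Members of the families are induced by ligand-activated receptors: Nr1i2 encodes PXR, Nr1i3 encodes CAR, Rxra their shared partner, and Ahr the aryl hydrocarbon receptor. In mouse liver, several of these genes are also known to follow the circadian clock through the transcription factors Dbp, Tef and Hlf, which bind D-box sequences.

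The promoters shown here are those of 3 P450 genes called for time, and of Cyp3a11, called for genotype at both times; they were picked with the results known, and the other called members are not shown. Each line gives the 250 bases before the annotated start, 5′ to 3′ on the gene's strand (GRCm38.p6). Capitals mark TTATGCAA read on the opposite strand, then TATAAA, in Cyp2a5 and Cyp2a4, TTATGCAA on the opposite strand in Cyp2b10, and CAAAGTCCA in Cyp3a11.
Cyp2a5, chr7:26835089-26835338, plus strand: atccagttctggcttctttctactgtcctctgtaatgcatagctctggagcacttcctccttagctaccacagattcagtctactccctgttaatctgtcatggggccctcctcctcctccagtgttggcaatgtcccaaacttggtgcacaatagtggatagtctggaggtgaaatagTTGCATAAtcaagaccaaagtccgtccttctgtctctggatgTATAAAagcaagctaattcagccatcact
Cyp2a4, chr7:26306942-26307191, plus strand: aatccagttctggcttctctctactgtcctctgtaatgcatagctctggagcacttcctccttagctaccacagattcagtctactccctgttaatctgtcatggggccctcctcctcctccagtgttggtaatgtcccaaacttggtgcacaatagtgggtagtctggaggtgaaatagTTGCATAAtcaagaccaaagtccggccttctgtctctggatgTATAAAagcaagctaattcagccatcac
Cyp2b10, chr7:25897408-25897657, plus strand: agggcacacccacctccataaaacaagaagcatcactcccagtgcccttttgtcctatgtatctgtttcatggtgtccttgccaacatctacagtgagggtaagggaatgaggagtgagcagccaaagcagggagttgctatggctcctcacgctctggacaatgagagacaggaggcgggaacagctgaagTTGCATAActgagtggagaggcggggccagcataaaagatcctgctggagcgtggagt
Cyp3a11, chr5:145879855-145880104, minus strand: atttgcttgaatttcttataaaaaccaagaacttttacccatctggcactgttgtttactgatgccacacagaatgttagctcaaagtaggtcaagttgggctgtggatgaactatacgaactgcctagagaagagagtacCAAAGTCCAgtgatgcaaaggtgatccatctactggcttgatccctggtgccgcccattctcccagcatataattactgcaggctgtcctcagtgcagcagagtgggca

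Of the members, 44 had a promoter entry of 300 bases, 250 before and 50 after the start. On either strand, the D-box letters TTATGTAA stood in 0 of these 44 and in 0.938% of 32851 promoters, and TTACGTAA in 0 of 44 and in 0.119%. TTATGCAA, searched after those with these sequences in view, stood in 3 of 44 (Cyp2a4, Cyp2a5 and Cyp2b10) and in 0.743% of all. It lay 71 to 64 bases before the start of Cyp2a5, 70 to 63 before that of Cyp2a4 and 58 to 51 before that of Cyp2b10. The matches in Cyp2a5 and Cyp2a4 are 1 shared stretch, since the promoters differed at 4 of 249 aligned bases. CAAAGTCCA, the letters of a site that nuclear receptors such as HNF4A are known to bind, stood in 6 of 44 (Cyp2c40, Cyp2c67, Cyp2c68, Cyp2c69, Cyp2c70 and Cyp3a11) and in 0.475% of all. The first 4 of these have transcripts 96.4 to 98.0% identical. Whether their matches are 1 copied stretch was not tested, so they may not be separate matches. TATAAA, the core of the TATA box, stood in 22 of 44 and in 13.6% of all, and the E-box CACGTG in 2 of 44 (Cyp2j6 and Nr1i3) and in 7.15%. Near-identical copies, such as Cyp2a4 and Cyp2a5, are also among the 22. None of the capitals overlap, and a TATAAA match farther upstream in Cyp3a11 was left in lower case. A match describes letters and not a bound site.

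Libraries held 34137121 to 44884200 reads in listed genes. Levels below are normalized counts, meaning recovered reads divided by size factors set over the 24 libraries. Changes are log2 ± SE on the scale log2(normalized count + 1), which understates the change of genes with few reads. They are CT15 minus CT03, LeuD minus Control or KO minus WT, and calls are limma's, with an adjusted p below 0.05. Each p-value sets a group difference against the spread between these mice, 3 per group, with each gene's spread drawn toward that of other genes. For KO LeuD against WT LeuD, and for differences of effects, the spread came from all 24 libraries. Transcripts of pancreas acinar cells stood apart in 3 libraries, at 14260 RPM (reads scaled by library size) in KO LeuD CT03 replicate 1, 7659 in KO LeuD CT15 replicate 3 and 4219 in WT LeuD CT15 replicate 1, against 9.45 to 645 in the other 21. Alb, the hepatocyte gene for albumin, took 11.8 to 15.3% of reads in KO LeuD libraries and 6.14 to 10.9% in the others. Reads summed over the knocked-out gene, Eif2ak4, spanned 243 to 462 normalized counts in KO libraries and 287 to 349 in WT libraries; such a sum does not show the loss of single exons, so it gave no check of the genotype labels. In bulk tissue, fewer cells of a type and less RNA per cell cannot be told apart.

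Together the P450 members took 1.21 to 2.19% of the reads of a library. Per kb of exon, Cyp2e1 stood first by far. It encodes the enzyme of ethanol and acetaminophen oxidation, and averaged 3077 RPKM (reads scaled by exon length and library size) over the 24 libraries. Cyp2d10 followed at 516, Cyp2d26 at 513, Cyp2f2 at 357 and Cyp2d9 at 308. At the low end, Cyp2s1 averaged 0.128 and Cyp1b1 0.178. Exon lengths were unions over the transcripts of GENCODE vM21, so a gene with long rare exons is set too low.

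**Figure D1:**
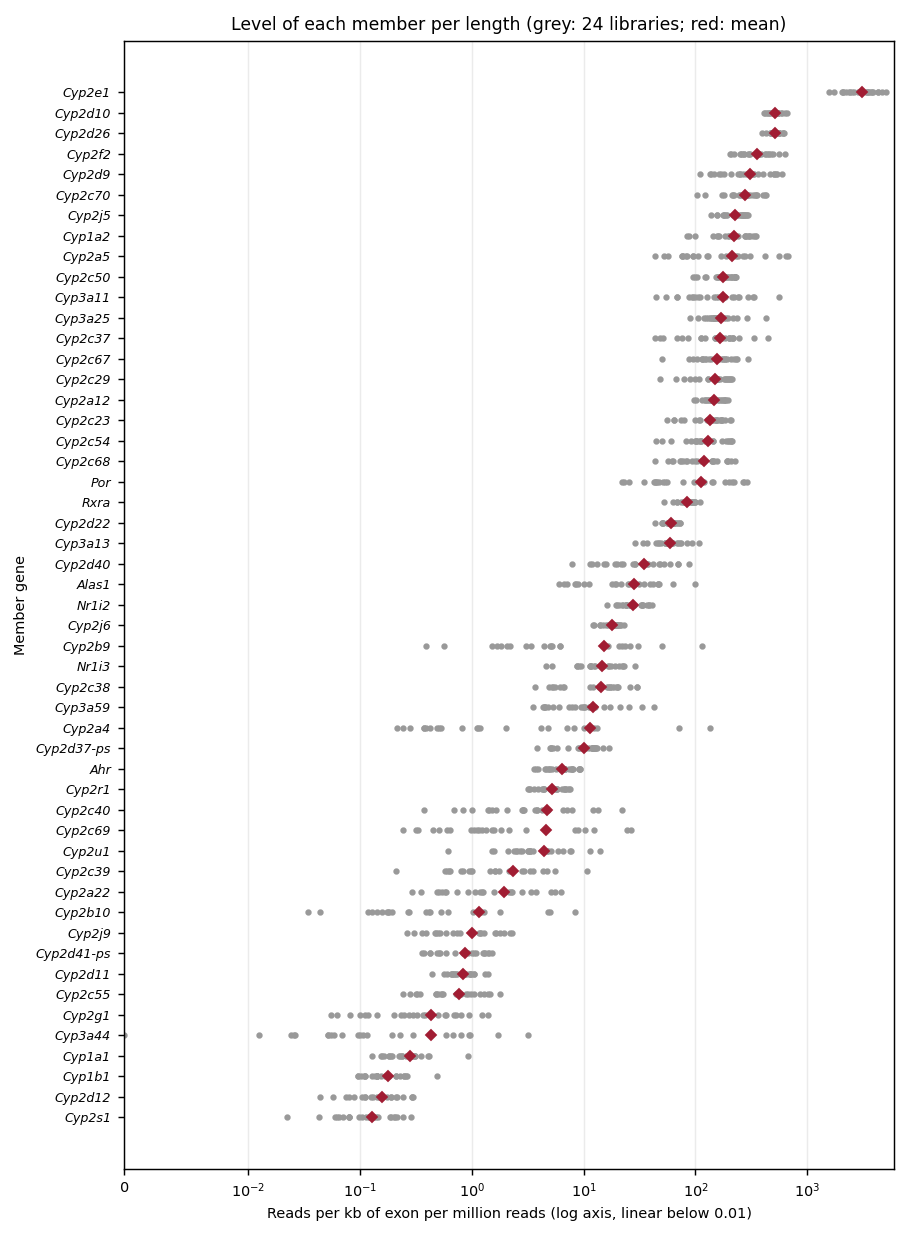
RPKM (horizontal log axis, linear below 0.01) for the 51 members with a count in every library, ordered by mean. Grey points are the 24 libraries and red diamonds their mean, with Cyp2e1 first at 3077 and Cyp2s1 last at 0.128.

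Near-identical copies limit what a single gene's count can mean. Among the 45 P450 members with a protein-coding transcript, 23 had another member at 90% identity or more. Cyp2a4 and Cyp2a5 were 98.3% identical, Cyp2c40 and Cyp2c68 98.0%, and Cyp3a25 and Cyp3a59 97.0%. Reads that fit more than 1 copy may have been split or dropped, so the values of these genes are uncertain.

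The comparison with the most called members was time in WT LeuD mice, where 8 of 53 tested members rose and 0 fell (15.1% of members, against 9.61% of all genes called in either direction and 4.32% called higher). Both partners, Por and Alas1, rose there, with the P450 genes Cyp2a5, Cyp2a4, Cyp2b10 and Cyp2g1 and the receptors Nr1i2 and Nr1i3. Without WT LeuD CT03 replicate 2, 5 members were called (share of all genes not given). In 1 fit of all 24 libraries, which takes the spread from all groups, 3 of 51 were called there: Por, Alas1 and Cyp2a5. That fit called 303 genes higher and 410 lower of 14420. In WT Control mice 1 of 52 rose, Alas1 (all genes 1.42% called, 0.869% higher). In KO LeuD mice 1 of 52 rose, Por (all genes 0.805% called, 0.644% higher). In KO Control mice 0 of 50 were called by limma within the table and by edgeR, and 4 had an unadjusted p under 0.05 (all genes 0.0407% called). There 1 fit of all 24 libraries called 1 member, and over all 14420 genes 257 higher and 314 lower. The authors' deposited tables called more members for time. In WT LeuD 8 of 53 were higher and 1 lower (all genes 944 higher and 1084 lower of 14786). In WT Control 8 of 50 were higher (all genes 514 and 393 of 14630). In KO LeuD 4 of 52 were higher (all genes 536 and 308 of 14848). In KO Control 2 of 48 were higher and 1 lower (all genes 182 and 175 of 14706). The median change of members was 0.18 in WT LeuD mice and 0.27 in KO LeuD mice, against 0.01 and -0.00 over all genes.

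The effect of diet called 5 of 51 members in WT mice at CT03, with 4 higher (Cyp2c38, Cyp2c68, Cyp2a22 and Cyp2b9) and 1 lower (Cyp2u1). All genes were called at 2.24% there, 1.31% higher and 0.93% lower. In the other diet comparisons 0 members were called by limma within each table or by edgeR: of 53 in WT at CT15 (all genes 0.186%, 15 members with an unadjusted p under 0.05), of 51 in KO at CT03 (all genes 0%, 12 members) and of 52 in KO at CT15 (all genes 0.0202%, 13 members). The order differed in 1 limma fit of all 24 libraries. In KO at CT15 it called 5 members, and over all 14420 genes 724 higher and 497 lower. In KO at CT03 it called no member, but 305 genes higher and 317 lower. In WT at CT03 it called no member, and 14 genes higher and 10 lower. Single mice moved the member counts of the fits within each table. The shares of all genes above belong to the fits with all mice. Those of the fits without a mouse are not given, so the counts that follow cannot be set against a share. In WT at CT03 there were 13 calls (9 higher, 4 lower) without WT Control CT03 replicate 1, and with the others left out 2 (Control replicate 2 or 3, LeuD replicate 2), 3 (LeuD replicate 1) or 1 (LeuD replicate 3). There were 3 in WT at CT15 without WT Control CT15 replicate 3, 9 in KO at CT03 without KO LeuD CT03 replicate 3 and 7 in KO at CT15 without KO Control CT15 replicate 1. The authors' deposited table for WT at CT03 called 10 of 47 members higher and 5 lower (all genes 545 higher and 415 lower of 13293). That for WT at CT15 called 4 of 52 higher and 2 lower (all genes 235 and 288 of 14125). For KO it called 3 of 50 higher and 3 lower at CT03 (all genes 298 and 222 of 14822). At CT15 it called 5 of 51 higher and 3 lower (all genes 451 and 247 of 14491).

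In KO LeuD against WT LeuD mice, 1 of 51 rose at CT03, Cyp3a11 (all genes 0.839% called, 0.437% higher), and 2 of 51 at CT15, Cyp3a11 and Cyp2c55 (all genes 3.91% called, 2.47% higher). On the Control diet 0 of 51 were called at CT03 (all genes 0.0136%, 8 members with an unadjusted p under 0.05) and 0 of 53 at CT15 (all genes 0.0798%, 1 member), by limma and by edgeR alike. The authors' deposited table called 2 of 50 members higher on Control at CT03, Cyp2c37 (adjusted p = 0.0265) and Cyp2a5 (adjusted p = 0.0391), and 0 of 52 at CT15. Over all genes it called 62 higher and 33 lower of 14649 at CT03, and 18 and 30 of 14961 at CT15. These counts do not show that genotype acts differently on the 2 diets. The test of that difference called 0 of 51 members at CT03 (all genes 0%) and 0 at CT15 (all genes 0.562%), with 8 and 6 members at an unadjusted p under 0.05. Without KO LeuD CT03 replicate 3, 6 members were called for genotype on LeuD at CT03 (3 higher, 3 lower) and 6 for its difference between diets at CT03 (1 higher, 5 lower). The share of all genes called without that mouse is not given.

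The other differences of effects also called 0 of 51 members by limma and by edgeR. Between diets, the time effect differed for 0% of all genes in WT mice and 0.257% in KO mice, with 0 and 4 members at an unadjusted p under 0.05. Between genotypes, it differed for 0.0277% of all genes on the Control diet and 0.0624% on the LeuD diet, with 2 and 3 members.

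**Figure D2:**
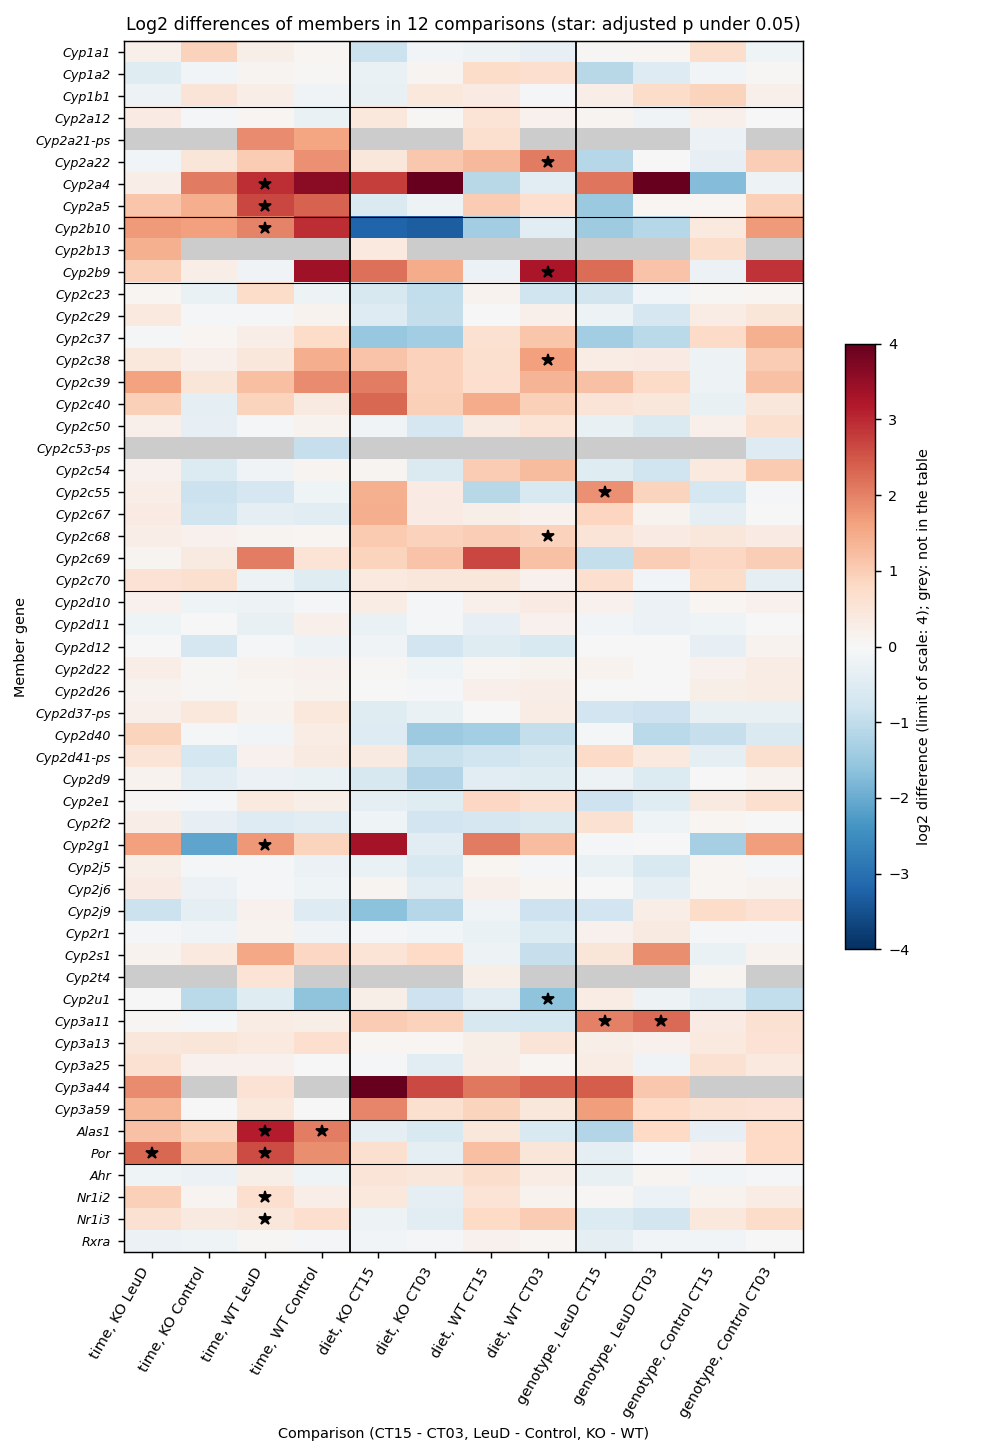
Log2 differences (colour, red higher and blue lower in the first-named group of CT15 - CT03, LeuD - Control and KO - WT) of each member (rows, grouped by role) in 12 comparisons (columns). Stars mark calls at an adjusted p under 0.05, of which 8 stand in time, WT LeuD, and grey marks genes that the table does not list.

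Family 1 is the set of genes that Ahr ligands induce. Cyp1a2, which oxidizes caffeine and aromatic amines, was the one abundant member and was called by limma in no comparison. The authors' deposited tables called Cyp1a2 higher on LeuD in WT mice at CT15 (adjusted p = 0.0109) and CT03 (adjusted p = 0.00146). Its 3 mice had 17145, 11675 and 8208 normalized counts in KO LeuD CT15, against 28592, 27574 and 21404 in WT LeuD CT15, groups that did not overlap. Cyp1a1 had 14.8 to 103 and Cyp1b1 21.7 to 113 normalized counts over the 24 libraries, and neither was called.

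Cyp2a5, the coumarin 7-hydroxylase, rose with time in WT LeuD mice. It had 55247, 35134 and 44729 normalized counts at CT15, against 6063, 8301 and 6510 at CT03. Every CT15 mouse lay above every CT03 mouse, and the change was 2.68 ± 0.18 (adjusted p = 0.00018 by limma). Limma within each table gave no call in the other 3 conditions: the change was 1.10 ± 0.46 in KO LeuD mice (adjusted p = 0.29), 1.46 ± 0.20 in KO Control mice (adjusted p = 0.0656) and 2.36 ± 0.56 in WT Control mice (adjusted p = 0.0922). In WT Control mice it was called in 1 fit of all 24 libraries (adjusted p = 0.017), and the authors' deposited table called it in WT Control (adjusted p = 0.0124) and in KO Control (adjusted p = 6.58e-08). In KO Control mice its 3 values were 23270, 26165 and 20350 at CT15 and 10490, 6815 and 8196 at CT03, again without overlap. At CT15 on the LeuD diet, KO mice had 17951, 22548 and 9592, all below the 3 WT mice, at -1.49 ± 0.47 (adjusted p = 0.0837). The difference in the time effect between KO LeuD and WT LeuD mice was -1.58 ± 0.67 (adjusted p = 0.476).

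Cyp2a4, the steroid 15α-hydroxylase, is the near copy of Cyp2a5 and varied far more. In WT LeuD mice it had 511, 143 and 76.3 normalized counts at CT15, against 26.3, 14.3 and 27.5 at CT03, a change of 2.97 ± 0.61 (adjusted p = 0.0213). The groups did not overlap, but the call was lost without WT LeuD CT03 replicate 1 (adjusted p = 0.0528), CT03 replicate 2 (0.0852) or CT15 replicate 2 (0.0503). The authors' deposited tables also called Cyp2a4 higher with time in WT Control (adjusted p = 0.015) and KO Control mice (0.00384), where limma did not. They called it higher on LeuD in KO mice at CT03 (0.00194). In KO Control mice it had 288, 59.3 and 89.1 at CT15 and 25.5, 19.2 and 36.7 at CT03, without overlap. In WT Control mice the times overlapped. In KO LeuD CT03 it had 9270, 833 and 34.8, against 26.3, 14.3 and 27.5 in WT LeuD CT03, at 4.83 ± 1.51 (adjusted p = 0.121). The highest of these, replicate 1, was the library with the most acinar transcripts, and their part in its level was not tested. The comparison passed the threshold without KO LeuD CT03 replicate 3 (6.93, adjusted p = 0.00355) and with edgeR (7.21, adjusted p = 0.049). In KO mice at CT15 it had 661, 718 and 1047 on LeuD and 288, 59.3 and 89.1 on Control, at 2.76 ± 0.53 (adjusted p = 0.0946). Without KO Control CT15 replicate 1 that comparison gave 3.42 (adjusted p = 0.00575), and the authors' deposited table called it (adjusted p = 4.56e-05). Cyp2a4 stood at 0.171 to 66.6% of the level of Cyp2a5 in the same library, with the highest share in KO LeuD CT03 replicate 1. In WT LeuD mice it stood at 0.924, 0.408 and 0.171% at CT15 and 0.433, 0.173 and 0.422% at CT03, which overlapped. Whether reads of Cyp2a5 were counted as Cyp2a4 was not tested.

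Cyp2a22 was called with diet. It had 157, 259 and 360 normalized counts in WT LeuD CT03, against 36.0, 64.2 and 78.7 in WT Control CT03, without overlap and at 2.09 ± 0.36 (adjusted p = 0.0292). That call was lost without WT Control CT03 replicate 2 (adjusted p = 0.083) or 3 (0.0592) and without WT LeuD CT03 replicate 2 (0.113) or 3 (0.106). Cyp2a12, which like Cyp2a4 oxidizes steroids and was abundant throughout (13150 to 32403 over the 24 libraries), was not called.

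Cyp2b10 is the classical target of CAR. In WT LeuD mice it had 111, 33.2 and 43.4 normalized counts at CT15, against 14.7, 14.3 and 10.1 at CT03. The groups did not overlap and the change was 2.00 ± 0.45 (adjusted p = 0.0296). This rests on few reads: the call was lost without any 1 of the 3 CT03 mice (adjusted p = 0.0645, 0.085 and 0.0869 without replicates 1, 2 and 3) and without CT15 replicate 1, the acinar library (1.49, adjusted p = 0.0563). In WT Control mice it had 49.1, 145 and 424 at CT15 and 31.1, 11 and 16 at CT03, at 2.97 ± 0.73 (adjusted p = 0.101). There the authors' deposited table called Cyp2b10 (adjusted p = 0.00728). In KO mice at CT15 it had 27.1, 10.1 and 27.5 on LeuD, against 706, 105 and 93.1 on Control, without overlap and at -3.21 ± 0.78 (adjusted p = 0.137). This was called in 1 fit of all 24 libraries (adjusted p = 0.0497) and in the authors' deposited table (adjusted p = 0.00697).

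Cyp2b9, a steroid hydroxylase that is predominant in female mice, was called with diet in WT mice at CT03. The LeuD mice had 357, 317 and 1045 normalized counts and the Control mice 26.3, 116 and 41.1, at 3.26 ± 0.58 (adjusted p = 0.0316). All 3 LeuD mice lay above the Control mice, but the call was lost without WT Control CT03 replicate 3 (adjusted p = 0.114) and without WT LeuD CT03 replicate 1 (0.0555), 2 (0.0786) or 3 (0.101). Elsewhere Cyp2b9 was not called by limma. Its mice had 1899, 471 and 10455 in KO LeuD CT15, against 3772, 142 and 176 in KO Control CT15. The authors' deposited table called it for time in WT Control mice (3.98, adjusted p = 0.0168). Cyp2b13 was listed in 3 tables only, at 0 to 73.4 normalized counts, and was not called.

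**Figure D3:**
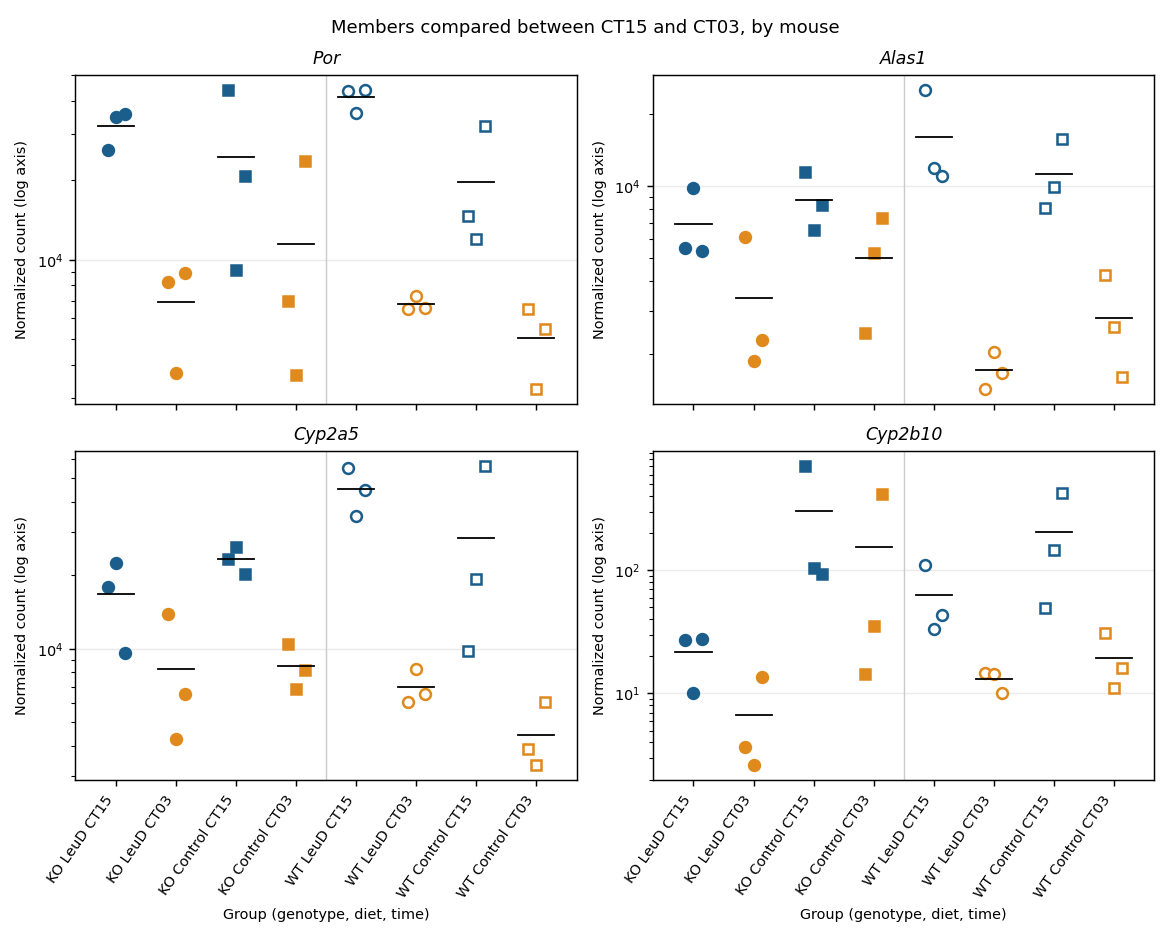
Normalized counts (vertical log axis) of Por, Alas1, Cyp2a5 and Cyp2b10 in each mouse of the 8 groups (horizontal axis), with a line at the group mean. Blue marks CT15 and orange CT03, circles LeuD and squares Control, filled KO and open WT; in WT LeuD the 3 CT15 mice lie above the 3 CT03 mice for all 4 genes.

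The Cyp2c genes oxidize arachidonic acid, retinoids and many drugs. In WT mice at CT03, Cyp2c38, an enzyme of arachidonic acid oxidation, had 1244, 1506 and 2011 normalized counts on LeuD, against 380, 593 and 553 on Control. The groups did not overlap, and the change of 1.63 ± 0.21 (adjusted p = 0.0104) was called in all 6 fits that left out 1 mouse. Cyp2c68 had 7784, 9314 and 9034 on LeuD and 5226, 4760 and 3787 on Control in the same mice, at 0.93 ± 0.13 (adjusted p = 0.0163). Its call was lost without WT Control CT03 replicate 2 (adjusted p = 0.0577) and without WT LeuD CT03 replicate 2 (0.0786) or 3 (0.0675). The median diet effect over the 13 tested Cyp2c genes was 0.93 in these mice, against -0.01 over all genes. These genes include near-identical copies, such as Cyp2c40 and Cyp2c68, so they are not 13 separate values. In the authors' deposited table their changes ran from -0.69 (Cyp2c23) to 1.64 (Cyp2c38) in these mice. For KO mice at CT03 they ran from -1.17 (Cyp2c37) to 1.18 (Cyp2c40). In 1 fit of all 24 libraries, 0 members were called for diet in WT mice at CT03, and Cyp2c38 had an adjusted p of 0.261. That fit called 14 genes higher and 10 lower of 14420.

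Cyp2c55, an enzyme of arachidonic acid oxidation that PXR and CAR ligands are known to induce, differed by genotype on the LeuD diet at CT15. KO mice had 110, 64.6 and 125 normalized counts and WT mice 28.3, 25.9 and 24.3, at 1.84 ± 0.50 (adjusted p = 0.0437). Every KO mouse lay above every WT mouse. The call held in 1 of the 6 fits that left out a mouse, that without KO LeuD CT15 replicate 2. It was lost without KO LeuD CT15 replicate 1 (adjusted p = 0.101) or 3 (0.192) and without WT LeuD CT15 replicate 1 (0.101), 2 (0.11) or 3 (0.125), and was 1.71 without the acinar libraries (adjusted p = 0.297). Cyp2c29, a major retinoid and drug oxidase, was called in no comparison, at 5388 to 26028 over the 24 libraries.

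**Figure D4:**
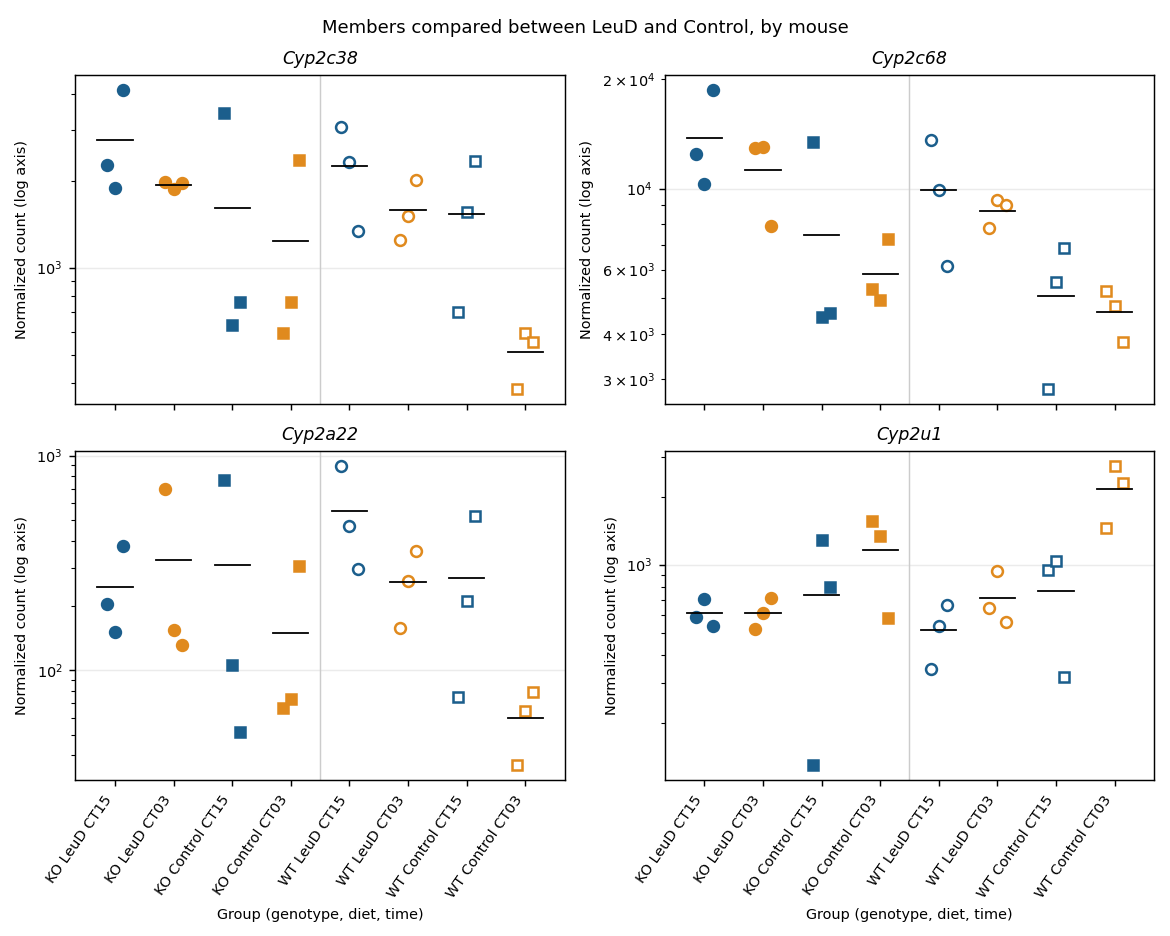
Normalized counts (vertical log axis) of Cyp2c38, Cyp2c68, Cyp2a22 and Cyp2u1 in each mouse of the 8 groups (horizontal axis), with a line at the group mean and symbols of time (blue CT15, orange CT03), diet (circle LeuD, square Control) and genotype (filled KO, open WT). At CT03 in WT mice, the 3 LeuD mice lie above the 3 Control mice for the first 3 genes and below them for Cyp2u1.

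Among the Cyp2d genes, of which 9 were tested in each of the 12 comparisons, 0 were called by limma. The authors' deposited tables called Cyp2d40 lower on LeuD in WT mice at CT15 (adjusted p = 0.00015) and CT03 (0.00777) and in KO mice at CT03 (0.0404). Cyp2d10 and Cyp2d26 were the steadiest of the abundant P450 genes: their highest mouse in a group exceeded the lowest by a median of 1.23 times each over the 8 groups. Cyp2d9, a testosterone 16α-hydroxylase predominant in male mice, moved more. It had 14675, 44311 and 52941 normalized counts in KO Control CT15 and 53480, 37310 and 18209 in WT Control CT15.

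Cyp2e1 was not called by limma, although its level spanned 121263 to 417865 normalized counts. In WT LeuD CT15 it had 344062, 401007 and 417865, against 164999, 209528 and 296769 in WT Control CT15, groups that did not overlap. Cyp2f2, which is known to bioactivate naphthalene and lies mainly in periportal hepatocytes, had 17139, 16533 and 20135 in those LeuD mice, below the 32390, 23442 and 30258 of the Control mice. Cyp2f2 was not called by limma either. The authors' deposited table called Cyp2e1 higher on LeuD in WT mice at CT15 (adjusted p = 0.0072). The authors called Cyp2f2 lower on LeuD in WT mice at CT15 (adjusted p = 0.00174) and CT03 (0.0221) and in KO mice at CT03 (0.00278). They also called it lower with time in WT LeuD mice (0.0198).

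Cyp2g1, a P450 best known from olfactory tissue, was scarce but rose with time in WT LeuD mice. It had 82.8, 62.3 and 114 normalized counts at CT15, against 30.5, 24.6 and 20.2 at CT03, without overlap and at 1.72 ± 0.29 (adjusted p = 0.0089). In KO mice at CT15 it had 57.7, 70.1 and 127 on LeuD and 5.36, 12.7 and 5.06 on Control, at 3.32 ± 0.47 (adjusted p = 0.0591), and passed without KO Control CT15 replicate 1 (0.0294) and in 1 fit of all 24 libraries (0.00292). The authors' deposited tables called it higher on LeuD at CT15 in KO (adjusted p = 2.78e-07) and WT mice (0.00904). In KO Control mice Cyp2g1 was lower at CT15 than at CT03, where it had 58.9, 27.7 and 24.1, without overlap. The authors' deposited table called that fall (-2.27, adjusted p = 0.025), and limma did not. The difference in the Cyp2g1 time effect between KO LeuD and KO Control mice, which includes that fall, was 3.78 ± 0.84 (adjusted p = 0.0698). This missed the threshold, and passed it without KO Control CT15 replicate 2 (adjusted p = 0.0453) or KO LeuD CT03 replicate 3 (0.0323).

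Cyp2u1, a fatty acid hydroxylase, was the member that fell with diet. It had 640, 936 and 557 normalized counts in WT LeuD CT03, against 1454, 2737 and 2307 in WT Control CT03. The groups did not overlap, and the change was -1.59 ± 0.25 (adjusted p = 0.0233). The call was lost without WT Control CT03 replicate 2 (adjusted p = 0.0761) or 3 (0.0965) and without WT LeuD CT03 replicate 1 (0.0555) or 3 (0.087).

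Cyp3a11 encodes the main drug-oxidizing P450 of family 3 in mouse liver and is the classical target of PXR. On the LeuD diet it was higher in KO than in WT mice at both times. At CT15 KO mice had 77604, 45998 and 81479 normalized counts and WT mice 9233, 26249 and 18059, at 2.02 ± 0.45 (adjusted p = 0.017). At CT03 KO mice had 111396, 44397 and 51317 and WT mice 16976, 10652 and 12996, at 2.25 ± 0.45 (adjusted p = 0.028). Every KO LeuD mouse lay above every WT LeuD mouse at either time.

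The Cyp3a11 calls depended on single libraries. At CT15 the call was lost without KO LeuD CT15 replicate 1 (adjusted p = 0.0527) or 3 (0.0892) or WT LeuD CT15 replicate 1 (0.0944). At CT03 it was lost without KO LeuD CT03 replicate 1 (1.84, adjusted p = 0.183) or 2 (0.0586) or WT LeuD CT03 replicate 2 (0.15) or 3 (0.131). Without the 3 acinar libraries the differences were 1.46 (adjusted p = 0.281) at CT15 and 1.84 (adjusted p = 0.183) at CT03. On the Control diet the groups overlapped at CT15, at 60696, 36819 and 15063 in KO mice and 19066, 20634 and 43208 in WT mice (0.33 ± 0.54, adjusted p = 0.871; -0.13 without KO Control CT15 replicate 1). At CT03 they did not, at 32197, 36817 and 31934 in KO mice and 20028, 27527 and 18854 in WT mice (0.62 ± 0.17, adjusted p = 0.544). The diet effect differed between KO and WT mice by 1.69 ± 0.64 at CT15 (adjusted p = 0.246) and 1.63 ± 0.64 at CT03 (adjusted p = 0.304), neither a call. In WT mice at CT03 the LeuD mice lay below the 3 Control mice, at -0.72 ± 0.20 (adjusted p = 0.109). The authors' deposited table called this difference (adjusted p = 0.00734).

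The other Cyp3a genes were not called by limma in any comparison. The authors' deposited tables called Cyp3a44 higher on LeuD in KO mice at CT15 (adjusted p = 2.03e-06) and CT03 (adjusted p = 0.0108). They also called Cyp3a59 higher with time in KO LeuD mice (adjusted p = 0.0143). Cyp3a13 and Cyp3a25 were abundant, and the KO LeuD CT15 mice had 20918, 12111 and 18819 normalized counts of Cyp3a25, against 12889, 15275 and 12661 in WT LeuD CT15, groups that overlapped. Cyp3a44, 93.5% identical to Cyp3a11 and predominant in females, was at 0 to 301 normalized counts.

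**Figure D5:**
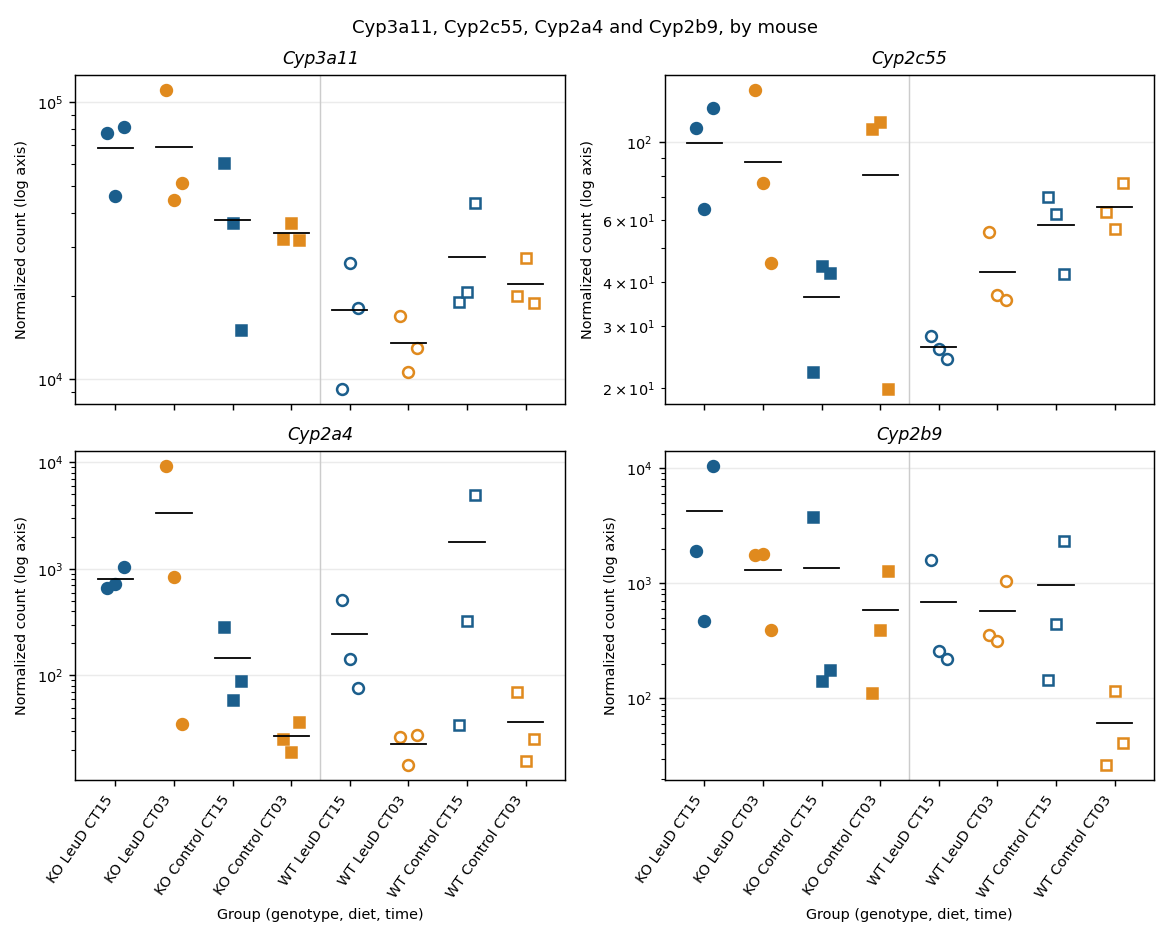
Normalized counts (vertical log axis) of Cyp3a11, Cyp2c55, Cyp2a4 and Cyp2b9 in each mouse of the 8 groups (horizontal axis), with a line at the group mean and symbols of time (blue CT15, orange CT03), diet (circle LeuD, square Control) and genotype (filled KO, open WT). The 6 KO LeuD mice lie above the 6 WT LeuD mice for Cyp3a11, while Cyp2a4 and Cyp2b9 spread widely within groups.

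Por, the electron donor of every microsomal P450, was the member with the lowest p for time. In WT LeuD mice it had 43663, 36043 and 44082 normalized counts at CT15, against 6503, 7288 and 6588 at CT03, at 2.60 ± 0.12 (adjusted p = 1.8e-05). In KO LeuD mice it had 26080, 34771 and 35678 at CT15 and 8230, 3744 and 8890 at CT03, at 2.29 ± 0.33 (adjusted p = 0.0259). CT15 and CT03 mice did not overlap in either genotype. The WT LeuD call held in all 6 fits that left out a mouse. The KO LeuD call was lost without KO LeuD CT03 replicate 1 (adjusted p = 0.0539) and without KO LeuD CT15 replicate 1 (0.0753), 2 (0.107) or 3 (0.136). Without the acinar libraries the KO LeuD change was 2.38 (adjusted p = 0.223).

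On the Control diet Por was not called by limma. In WT mice it had 14635, 12010 and 32193 at CT15 and 6503, 3249 and 5482 at CT03, without overlap and at 1.87 ± 0.38 (adjusted p = 0.0676). The authors' deposited table called Por in these mice (adjusted p = 0.00897). In KO mice it had 43828, 9174 and 20749 at CT15 and 7003, 3666 and 23669 at CT03, which overlapped (1.25 ± 0.77, adjusted p = 0.558). The time effect in WT mice was not shown to differ between LeuD and Control, at a difference of 0.73 ± 0.79 (adjusted p = 1).

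Alas1, the rate-limiting enzyme of haem synthesis, rose with time in WT mice on both diets. On LeuD it had 25195, 11887 and 10938 normalized counts at CT15 and 1425, 2038 and 1660 at CT03, at 3.13 ± 0.29 (adjusted p = 0.000776). On Control it had 8055, 9923 and 15625 at CT15 and 4241, 2569 and 1601 at CT03, at 2.05 ± 0.36 (adjusted p = 0.0432). Neither pair of groups overlapped. The LeuD call held in all 6 fits that left out a mouse. The Control call was lost without WT Control CT03 replicate 2 (adjusted p = 0.179) or 3 (0.104), without WT Control CT15 replicate 1 (0.0658), 2 (0.107) or 3 (0.0925), and with edgeR (0.0553).

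In KO mice the Alas1 groups overlapped. On LeuD it had 5531, 9816 and 5361 at CT15 and 6124, 1858 and 2281 at CT03, at 1.16 ± 0.44 (adjusted p = 0.259). On Control it had 11425, 6539 and 8289 at CT15 and 2445, 5244 and 7310 at CT03, at 0.90 ± 0.41 (adjusted p = 0.427). The time effect on the LeuD diet was smaller in KO than in WT mice by -1.97 ± 0.66 on the log2 scale, which was not called (adjusted p = 0.342). Between LeuD and Control in WT mice it differed by 1.08 ± 0.66 (adjusted p = 1).

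Of the receptors, Nr1i2 and Nr1i3 rose with time in WT LeuD mice by less than the enzymes named above. Nr1i2 had 3505, 3945 and 4002 normalized counts at CT15, against 2547, 2321 and 2316 at CT03, at 0.67 ± 0.09 (adjusted p = 0.00444). Nr1i3 had 3475, 4033 and 3852 at CT15, against 2880, 2956 and 2492 at CT03, at 0.45 ± 0.10 (adjusted p = 0.0327). Neither overlapped between times. The Nr1i2 call held in all 6 fits that left out a mouse, but not in 1 fit of all 24 libraries (adjusted p = 0.0672). The Nr1i3 call was lost without WT LeuD CT03 replicate 1 (adjusted p = 0.0634), 2 (0.0804) or 3 (0.0937) and without WT LeuD CT15 replicate 2 (0.106) or 3 (0.0717). In KO LeuD mice Nr1i2 had 3991, 3804 and 4019 at CT15 and 1960, 1510 and 2787 at CT03, at 0.96 ± 0.22 (adjusted p = 0.0949). It was called there without KO LeuD CT03 replicate 3 (adjusted p = 0.0144) and in 1 fit of all 24 libraries (adjusted p = 0.00677). The authors' deposited tables called Nr1i2 for time in KO LeuD (adjusted p = 0.00752) and in WT LeuD (adjusted p = 5.85e-07). Rxra spanned 13252 to 23161 and Ahr 872 to 2357 normalized counts over the 24 libraries, and neither was called.

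Genes around the pathway were counted in lists that hold no member. Of 4 factors of the D-box, 3 rose (Tef, Dbp and Hlf, activators) and 1 fell (Nfil3, a repressor) with time in WT LeuD mice. Over all genes, 9.61% were called for time there, 0.805% in KO LeuD mice and 1.42% in WT Control mice. The changes in WT LeuD mice were 2.96 ± 0.12 for Tef (adjusted p = 1.8e-05), 5.15 ± 0.27 for Dbp (adjusted p = 4.57e-05), -1.49 ± 0.12 for Nfil3 (adjusted p = 0.000323) and 0.91 ± 0.13 for Hlf (adjusted p = 0.00469). All 4 moved in the WT LeuD mice in which Por, Alas1 and Cyp2a5 rose, and the part of these factors in those changes was not tested. In KO LeuD mice Tef and Dbp rose, by 2.57 ± 0.31 (adjusted p = 0.0152) and 2.93 ± 0.44 (adjusted p = 0.0308). Without the acinar libraries Tef had an adjusted p of 0.162. The Tef call was lost without KO LeuD CT03 replicate 2 (adjusted p = 0.0558) or without CT15 replicate 1 (0.0678), 2 (0.0698) or 3 (0.0737), and the Dbp call without CT03 replicate 1 (0.06) or 2 (0.0901) or CT15 replicate 1 (0.11) or 2 (0.116). In WT Control mice Tef alone of the 4 was called (1.48 ± 0.18, adjusted p = 0.0188), a call lost without CT03 replicate 2 (0.0621) or 3 (0.0575) or CT15 replicate 1 (0.0508) or 3 (0.0516).

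With diet in WT mice at CT03, 1 of the 4 rose and 2 fell, where 2.24% of all genes were called. Nfil3 was higher on LeuD by 0.92 ± 0.11 (adjusted p = 0.00959) and held in all 6 fits that left out a mouse. Tef was lower, at -1.08 ± 0.17 (adjusted p = 0.0223), and Dbp at -3.02 ± 0.59 (adjusted p = 0.041). In 1 fit of all 24 libraries none of these was called, at an adjusted p of 0.177 for Nfil3, 0.229 for Tef and 0.25 for Dbp. The Tef call was lost without WT Control CT03 replicate 3 (adjusted p = 0.0919) or WT LeuD CT03 replicate 2 (0.0929) or 3 (0.0858). The Dbp call was lost without WT Control CT03 replicate 3 (0.132) or WT LeuD CT03 replicate 1 (0.0881), 2 (0.118) or 3 (0.14).

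The 7 enzymes of haem synthesis after Alas1 gave 0 calls in 11 of the 12 comparisons. The exception was Fech, which inserts iron into haem and was lower in KO LeuD than in WT LeuD mice at CT15 (-0.49 ± 0.12, adjusted p = 0.0268), a call lost without WT LeuD CT15 replicate 1 (0.0833), 2 (0.0754) or 3 (0.0799) or KO LeuD CT15 replicate 2 (0.0637) or 3 (0.131). Their median time effect in WT LeuD mice was -0.05, beside the 3.13 of Alas1 there. Of 22 other oxidases, hydrolases and reductases, 5 rose and 0 fell with time in WT LeuD mice, where 4.32% of all genes were called higher. The flavin monooxygenases Fmo5 (1.65 ± 0.13, adjusted p = 0.000367), Fmo2 (2.96 ± 0.33, adjusted p = 0.00149) and Fmo1 (1.09 ± 0.15, adjusted p = 0.00439) led them and held in all 6 fits that left out a mouse. In KO LeuD mice 4 of 22 rose, where 0.644% of all genes were called higher, led by Fmo2 (3.04 ± 0.30, adjusted p = 0.00607), which was lost without the acinar libraries (2.74, adjusted p = 0.107). Fmo5 there (1.70 ± 0.22, adjusted p = 0.0169) was lost without KO LeuD CT03 replicate 1 (0.0654) or 2 (0.0682), CT15 replicate 2 (0.0651) or 3 (0.0835), and the acinar libraries (0.285). Fmo1 (1.35 ± 0.20, adjusted p = 0.0306) was lost without KO LeuD CT03 replicate 1 (0.101) or 2 (0.114), CT15 replicate 1 (0.0936), 2 (0.0645) or 3 (0.127), and the acinar libraries (0.353). In WT mice at CT03, Ces2c, a carboxylesterase, fell with the LeuD diet by -1.68 ± 0.19 (adjusted p = 0.00707). It was called in all 6 fits that left out a mouse but not in 1 fit of all 24 libraries (adjusted p = 0.446).

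Some members spread so widely within groups that 3 mice could show little. The highest mouse of a group exceeded the lowest by a median of 11.1 times for Cyp2c69, 9.39 times for Cyp2b9, 6.21 times for Cyp2c40 and 4.67 times for Cyp2a4 over the 8 groups, against 1.19 times for Cyp2j6 and 1.22 times for Rxra. The first 4 are on the list of P450 genes predominant in female mice, as is Cyp3a44. The same mouse was highest of its group for all 5 genes in KO LeuD CT15 (replicate 3), KO Control CT15 (replicate 1), WT LeuD CT15 (replicate 1), WT LeuD CT03 (replicate 3) and WT Control CT15 (replicate 3). These mice were also highest in all 5 groups for Cyp2a22, Cyp2c38, Cyp2c39 and Cyp3a59. Those genes are not on that list, so the shared mouse was not particular to it. In KO Control CT15 and WT Control CT15 those mice were also highest for Por, Alas1 and Cyp2b10, and lowest for Cyp2d9. Of these 5 libraries, 2 were among the 3 with the most acinar transcripts. This pattern was seen in the values and was not tested.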

How the data were processed

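Liver RNA of 24 mice was enriched for poly(A) and made into libraries with the NEBNext Ultra II RNA kit, per the labels' protocols; no strand setting is given. The submitters' processing notes name build GRCm39 and, without their roles, DESeq, DESeq2, Subread 1.5.2, featureCounts, STAR 2.5.2b and Trimmomatic 0.36; the annotation is not given in the sources used here. The authors deposited 10 tables of 2 groups each, with 6 library columns of normalized counts (a signal: read counts scaled by factors that differ by table, not raw counts), a log2 fold change, a p-value and an adjusted p-value from the authors' own comparison. Multiplying back gave whole reads for 100% of 862439 values (tolerance 0.01), and reads of the same library in different tables differed at 0 values. For 2 columns the reads came from another table.

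The main test was limma 3.58.1 (R 4.3.3) with a trend on log2(normalized count + 1) within each table, over 14674 to 15073 genes, with Benjamini-Hochberg adjustment over the table and calls under 0.05. No table sets KO LeuD beside WT LeuD, so these comparisons and the 6 differences of effects came from 1 limma fit of the 24 libraries (14420 genes). The genes listed had at least 61 reads summed over the libraries of a table, so scarce members are missing from some tables: Cyp2a21-ps was listed in 4, Cyp2b13 in 3, Cyp2c53-ps in 2, Cyp2t4 in 3 and Cyp3a44 in 6. Alternatives were a pseudocount of 10, a mean of at least 50 normalized counts, edgeR 4.0.16 quasi-likelihood on the recovered reads (which called 631 genes higher and 745 lower for time in WT LeuD, where limma called 640 and 784), 1 limma fit of 24 libraries, the replicate number as a block, leaving out each mouse, and leaving out the 3 acinar libraries. The fits were tested on simulated data. Promoters were read from RefSeq (GRCm38.p6), and exon lengths and transcript identities from GENCODE vM21 (GRCm38); no coordinates were converted.

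Members and lists were chosen with earlier results of these data known. Named were the members always described (Por, Alas1, the receptors and 10 P450 genes), up to 6 called members with the lowest p and a mean of at least 50 in each comparison, and from each other list up to 3 called genes with the lowest p; members outside this rule were chosen after their values were seen.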

Additional observations from a re-analysis of the deposited data

How the results depend on the processing

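Each mouse left out in turn moved the count of called members to 0 to 1 for time in WT Control, 5 to 9 in WT LeuD and 0 to 2 in KO LeuD. For diet the ranges were 1 to 13 in WT at CT03, 0 to 3 in WT at CT15, 0 to 9 in KO at CT03 and 0 to 7 in KO at CT15. For genotype on LeuD they were 0 to 6 at CT03 and 0 to 2 at CT15, and for differences of effects 0 to 1 (time between diets, KO) and 0 to 6 (diet between genotypes, CT03). Calls over all genes in these fits are not given, so whether members moved more than other genes is not shown. With 1 limma fit of 24 libraries the counts were 2 for time in WT Control, 3 in WT LeuD, 1 in KO Control and 2 in KO LeuD. For diet they were 0 in WT at CT03 and 5 in KO at CT15. Of the 14420 genes in that fit, 90 were higher and 64 lower for time in WT Control, and 303 and 410 in WT LeuD. In KO mice they were 257 and 314 on Control, and 698 and 471 on LeuD. For diet all genes gave 14 and 10 in WT at CT03, and 724 and 497 in KO at CT15. With edgeR on recovered reads the counts of members were 0 for time in WT Control (all genes 113 higher and 70 lower of 14688). They were 2 for genotype on LeuD at CT03 (all genes 86 higher and 49 lower of 14420). Without the acinar libraries the counts of members were 0 for time in KO LeuD (all genes 9 higher and 0 lower of 14914). They were 0 for genotype on LeuD at either time (all genes 66 higher and 29 lower of 14420 at CT15, 6 and 8 at CT03). The cause of these shifts was not tested.

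The labels do not say what a replicate number marks, and in none of the 10 comparisons within a deposited table did all 3 same-number correlations of deviations exceed 0.1 (range -0.43 to 0.507). The 2 genotype comparisons on LeuD were not checked. With the replicate block the counts were 0 for time in WT Control, 6 in WT LeuD and 0 in KO LeuD. Over all genes, 27 were higher and 15 lower in WT Control, 362 and 385 in WT LeuD, and 55 and 14 in KO LeuD.

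Over all alternatives for single genes, 778 values stayed on the same side of the threshold with the same direction, 228 lost a call, 11 gained one and 2 reversed. Those were the genotype difference of Cyp3a11 on Control at CT15, which was -0.13 without KO Control CT15 replicate 1 and up to 0.88 with other mice left out, and the difference of the Cyp2a5 time effect between diets in WT mice, which was -0.27 without WT Control CT15 replicate 1 and up to 0.995 with others left out.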

Other observations

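Hepatocyte genes of the zones around the central and portal veins, which hold no P450 member, also moved with time in WT LeuD mice. Over all genes, 9.61% were called in that comparison and 4.32% called higher. Of the 9 pericentral genes, 1 rose and 2 fell. Axin2, a feedback inhibitor of Wnt signalling, fell (-0.79, limma adjusted p = 0.00555) and was called in all 6 fits that left out a mouse. Lgr5, a receptor that amplifies Wnt signalling, fell (-0.86 ± 0.19, adjusted p = 0.0256) and Slc1a2, a glutamate transporter, rose (0.66 ± 0.14, adjusted p = 0.0212). Both were lost without WT LeuD CT03 replicate 1, 2 or 3 (Lgr5 0.0575, 0.102 and 0.0751; Slc1a2 0.0654, 0.0535 and 0.0675). Of the 9 periportal genes, 2 rose and 2 fell: Sds, which breaks down serine, rose (1.64, adjusted p = 0.00124), Arg1 of the urea cycle rose (0.78, adjusted p = 0.00795), Hal, which breaks down histidine, fell (-0.70, adjusted p = 0.00572), and Cdh1, which encodes E-cadherin, fell (-0.88 ± 0.15, adjusted p = 0.0101). Sds, Arg1 and Hal were called in all 6 fits that left out a mouse, but in 1 fit of all 24 libraries Arg1 (adjusted p = 0.0636) and Hal (0.168) were not. Both lists thus moved in both directions. Slc1a2 was lower in KO LeuD than in WT LeuD mice at CT15 (-1.76 ± 0.24, adjusted p = 0.000446), in all 6 such fits and without the acinar libraries.

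Of the lists nearer to the P450 genes, haem breakdown (4 genes) had Blvrb higher with time in WT LeuD mice and Hmox2 higher with diet in WT mice at CT03. Among 6 other electron carriers, Cyb5r3, the reductase of cytochrome b5, was lower on LeuD in WT mice at both times (-0.89 ± 0.12 at CT15, adjusted p = 0.0465; -0.82 ± 0.14 at CT03, adjusted p = 0.0292). Nqo1 of the Ahr pathway (4 tested) rose with time in WT LeuD mice, and Ppara, of 10 receptor partners, in WT LeuD and KO LeuD mice. Each of these calls was lost in most of the fits that left out a mouse.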
